A study of Mus musculus with 72 samples.

Results

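Polysomal RNA of 3 B lymphoma lines that had relapsed under CX5461+EV (lines 8, 9 and 31, called combination lines) was compared with that of 3 drug-naive lines (6, 33 and 38). These libraries were chosen by their labels and make up 6 of the 72 libraries of the series. All lines descend from 1 Eμ-Myc lymphoma clone, number 107, which carries an MSCV Gfp marker. In Eμ-Myc cells a Myc transgene is driven by the immunoglobulin heavy chain enhancer, so that Myc is high in B lineage cells. The clone had been transplanted into mice that received vehicle, the mTORC1 inhibitor everolimus (EV), the RNA polymerase I inhibitor CX-5461, or both drugs. When disease returned, lymphoma cells from lymph nodes were taken into culture for 2 to 3 passages. C57BL/6 hosts are stated for the acute experiment of the series. The animals' age, the drug doses behind the relapse lines and whether drug was present in culture are not given in the sources used here. The labels number the lines but do not say that each came from its own mouse, so p-values measure only the spread between these lines. The fit also held 3 everolimus lines (4, 12 and 26) and 1 CX-5461 line (20), and the CX-5461 lines 14 and 39 were left out of it.

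CX-5461 blocks the transcription of ribosomal DNA, the first step of ribosome production. Everolimus lowers mTORC1 signalling, which drives ribosome production and the translation of many mRNAs. Lymphoma cells driven by Myc depend on both, and an mRNA bound by several ribosomes at a time sediments in the polysomal part of a sucrose gradient. Polysomal RNA here is the pool of fractions holding 4 or more ribosomes, and input RNA is the cytoplasmic RNA of the same line. According to its design text, the series used polysome profiles of relapsed lines to study resistance to therapy aimed at the ribosome.

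The 6 polysomal libraries held 15528791 to 22283405 counts assigned to genes. Markers of B cells summed to 2046 to 2414 CPM (counts scaled to the size of the library) in the naive lines and to 1911 to 2421 CPM in the combination lines. T cell markers summed to 3.99 to 5.83 and 3.29 to 6.60 CPM, with 12 of 13 under 1 CPM in every line and Cd3e at 0. Myeloid markers summed to 5.93 to 8.45 and 5.28 to 6.28 CPM, with 4 of 11 at 0. Itgam made up most of the myeloid sum. Csf1r was lower in the combination lines, at 0.0658, 0.103 and 0.0910 CPM in lines 8, 9 and 31. It held 2.04, 1.33 and 1.39 CPM in naive lines 6, 33 and 38. Stromal and endothelial markers summed to 80.8 to 102 and 65.2 to 83.8 CPM, with 9 of 12 under 1 CPM in every line. Most of that sum was Pecam1, at 73.3 to 94.3 and 61.5 to 79.7 CPM. The sum of the NK cell markers was higher in the combination lines, at 1.14 to 3.15 against 0.297 to 0.544 CPM, with Ncr1 and Gzma at 0. In every line 7 of 8 were under 1 CPM. Klrb1c held 0.724, 2.84 and 0.364 CPM in combination lines 8, 9 and 31, and 0.185, 0.148 and 0 CPM in naive lines 6, 33 and 38. Prf1 overlapped between the groups, and Gzmb and Klrk1 were found only in naive line 6. Erythroid markers stood at 2.78 to 11.6 against 1.29 to 2.92 CPM. The part of these markers in the results below was not tested. In bulk RNA, fewer cells carrying a transcript and less of it per cell cannot be told apart.

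Of 15434 genes tested, 1522 (9.86%) were higher and 1752 (11.4%) lower in combination lines than in naive lines at an adjusted p below 0.05 (edgeR's quasi-likelihood test with Benjamini-Hochberg adjustment). Together these were 3274 genes or 21.2%, and 5325 (34.5%) had an unadjusted p below 0.05. In 2763 genes (17.9%) every combination line lay above every naive line, and in 3137 (20.3%) below, so groups that do not overlap are common here. Most of the differences were small: 2275 of the called genes (14.7% of those tested) changed by less than 2-fold, while 212 (1.37%) were at least 4-fold higher and 164 (1.06%) at least 4-fold lower. The median log2 fold change over all tested genes was 0.0065, so the counts below can be read against a centre near 0. The shares called over all genes, 9.86% higher and 11.4% lower, are the background for the counts of each gene list below. The count of calls rested partly on single lines. It was 1991 without naive line 33, 1669 without naive line 38 and 2074 without combination line 9. With the CX-5461 lines 14 and 39 in the fit it was 1480.

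**Figure D1:**
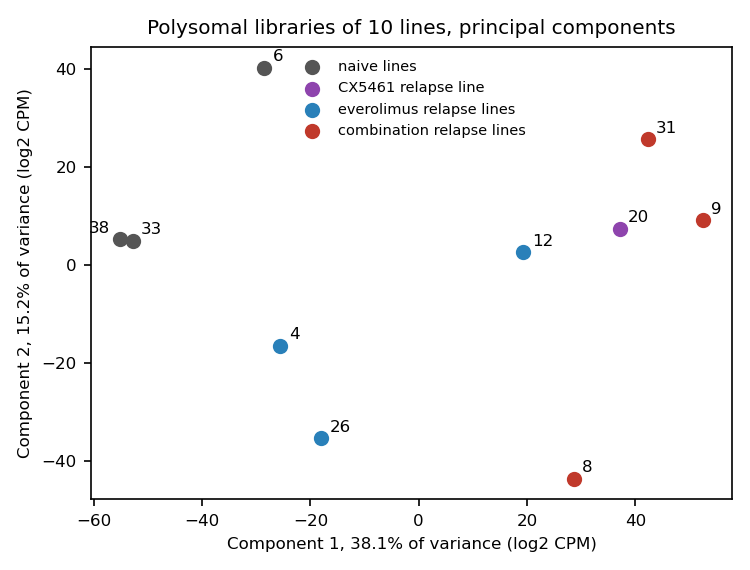
Principal components of log2 CPM in polysomal RNA, each point 1 line, with component 1 (38.1% of the variance) on the x axis and component 2 (15.2%) on the y axis. The naive lines lay between -55.1 and -28.5 on component 1, the combination lines between 28.6 and 52.5, the everolimus lines between -25.5 and 19.3, and CX-5461 line 20 at 37.2.

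The naive and combination lines lay at opposite ends of the first principal component, as the plot of principal components shows. The everolimus lines lay between them, and the CX-5461 line lay within the range of the combination lines. Component 2 set combination line 8 apart from lines 9 and 31, and naive line 6 apart from lines 33 and 38. In the deposited polysomal table the columns of these 10 lines form 2 alphabetical runs, whose meaning the labels do not give. The first run holds combination lines 9 and 31, naive line 6, everolimus line 12 and CX-5461 line 20. The second holds combination line 8, naive lines 33 and 38 and everolimus lines 4 and 26. The splits within the naive and the combination lines follow these runs, so run and line cannot be told apart there. For the genes called higher, the median log2 difference from the naive mean was 0.67, 0.80 and 0.78 in combination lines 8, 9 and 31. For the same genes it was 0.23, 0.44 and 0.23 in the everolimus lines 4, 12 and 26, and 0.48 in CX-5461 line 20. All these differences share the naive lines as reference. The genes were also chosen on the combination and naive values, which favours larger medians in the combination lines than in the other treated lines.

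**Figure D2:**
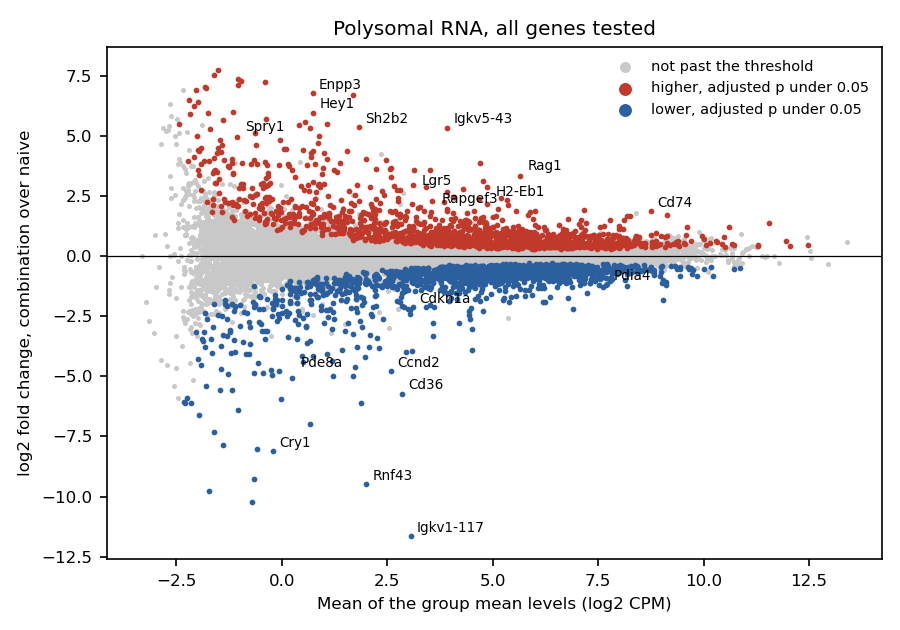
Log2 fold change (combination over naive, y axis) against mean log2 CPM (x axis) for the 15434 genes tested in polysomal RNA. Coloured points are the 1522 genes called higher and the 1752 called lower, and labels mark genes with large changes.

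Below, CPM values are given in the order naive lines 6, 33 and 38, then combination lines 8, 9 and 31, and each log2 fold change is combination over naive with its standard error. Hey1, a transcriptional repressor switched on by Notch, stood at 0.139, 0.247 and 0.121 CPM in naive lines and at 15.8, 11.4 and 6.55 CPM in combination lines. Its log2 fold change was 5.98 ± 0.54 (63.2-fold, adjusted p = 0.000191). The gene lies on the minus strand of chromosome 3 at chr3:8663359-8667256 (GRCm38). The everolimus lines held 1.19, 2.32 and 0.755 CPM, above every naive line and below every combination line. CX-5461 line 20 held 22.8 CPM.

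Lgr5, a receptor for R-spondins that strengthens Wnt signalling, gave one of the tightest differences between the groups. It stood at 7.79, 7.27 and 7.32 CPM against 53.8, 56.3 and 45.2 CPM, a log2 fold change of 2.79 ± 0.18 (6.93-fold, adjusted p = 7.91e-05). Rnf43, a ubiquitin ligase that removes Wnt receptors from the cell surface, moved the other way. It stood at 89.9, 78.4 and 70.8 CPM in naive lines and at 0.0658, 0.103 and 0.137 CPM in combination lines (log2 fold change -9.47 ± 1.73, adjusted p = 0.00387). The combination lines together held 6 Rnf43 counts and the naive lines 4697. The transcript was also near 0 in everolimus lines 12 and 26 (0.110 and 0.116 CPM) and in CX-5461 line 20 (0.0452 CPM), while everolimus line 4 held 20.0 CPM. So near-absence of Rnf43 was found in 6 of the 7 treated lines in the fit.

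Of 24 tested genes of the Wnt and Notch list, which holds Hey1 and Lgr5, 4 were higher and 4 lower, with a median of 0.06. The 4 higher became 2 without naive line 33, naive line 38 or combination line 31, and the 4 lower became 2 without naive line 6. Notch2 (0.58 ± 0.16, adjusted p = 0.0276) and Notch1 (0.41 ± 0.11, adjusted p = 0.0198), both receptors, were the other 2 that were higher. The Wnt co-receptor Lrp6 fell from 148, 175 and 173 CPM to 84.7, 79.4 and 72.9 CPM (log2 fold change -1.06 ± 0.12, adjusted p = 0.000467). Apc, part of the complex that degrades beta-catenin, was lower at -0.56 ± 0.12 (adjusted p = 0.00783), and so was the Notch ligand Jag1, at 1.25 CPM or less in every line. Hes1, a Notch target like Hey1, was lower at -1.10 ± 0.28 (adjusted p = 0.0197). The Hes1 call was lost without naive line 6, naive line 33 or combination line 31, with an adjusted p up to 0.0716.

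**Figure D3:**
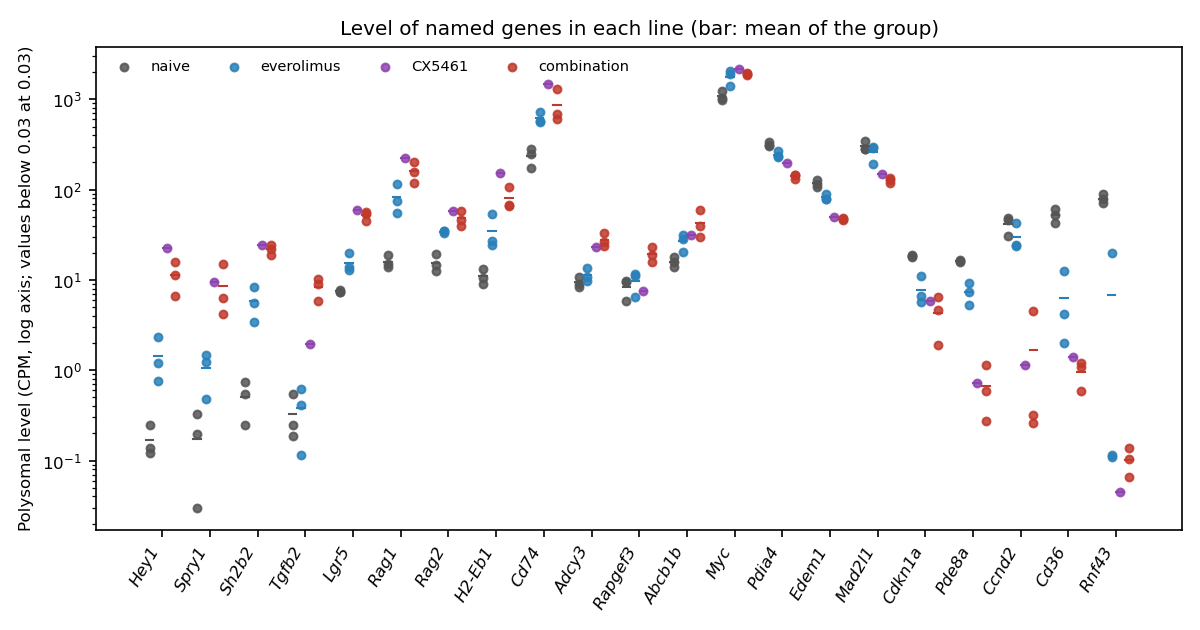
CPM in polysomal RNA (log axis) of 21 genes in each line, with naive, combination and everolimus lines and CX-5461 line 20 in separate colours and a bar at each group's mean. Values below 0.03 CPM are drawn at 0.03. The genes shown come from those named because their combination and naive values do not overlap.

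Among the 15 largest rises were several genes at very low level in naive lines. Hpgd, which breaks down prostaglandins, was held in 386 counts by the combination lines and in 2 by the naive lines, a ratio of 199 per library size (counting interval 54.8 to 1651). Its level in combination lines was uneven, at 1.91, 3.47 and 13.2 CPM, and its fitted log2 fold change of 7.27 was 9.95 without naive line 33 and 6.07 without combination line 31. Enpp3, an ectonucleotidase, stood at 0.139, 0.0494 and 0.242 CPM against 3.82, 29.0 and 14.5 CPM (6.78 ± 1.15, adjusted p = 0.00271), and its value was 6.02 without combination line 9. Sh2b2, an adaptor of receptor tyrosine kinases and JAK kinases, was more even: 0.742, 0.247 and 0.544 CPM against 18.9, 21.9 and 24.4 CPM (5.39 ± 0.40, 41.9-fold, adjusted p = 9.51e-05). Tgfb2, a secreted growth factor, stood at 0.185, 0.247 and 0.544 CPM against 9.02, 10.2 and 5.87 CPM (4.71 ± 0.50, adjusted p = 0.000335). CX-5461 line 20 held 21.6 CPM of Enpp3, 24.2 CPM of Sh2b2 and 1.94 CPM of Tgfb2. Zfp704, Insm1, Lingo3, Osbp2, Ephx1, Spats2, Dclk2 and Kcnk1 also rose, by 4.30 to 5.33 on the log2 scale. Leaving out 1 line moved several of these folds by more than 1.5 times: Insm1 to 5.94 without naive line 6 and 4.32 without combination line 9, and Lingo3 to 6.30 without naive line 33. Kcnk1 moved to 5.23 without naive line 6 and 3.56 without combination line 8. Spats2 moved to 3.803, 6.60 and 3.73 without naive line 6, naive line 38 and combination line 8. The Osbp2 value rested on combination line 31, which held 16.0 CPM against 3.62 and 1.71 in lines 8 and 9. Its log2 fold change was 7.74 without naive line 6. Without line 31 it was 3.06 and it no longer passed, nor did it without naive line 33 or 38. The Spats2 call was lost without naive line 33.

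Cry1, a repressor of the circadian clock, was among the 15 largest falls. It stood at 8.76, 4.30 and 6.71 CPM in naive lines, and the combination lines held 1 count between them against 387. The ratio was 375, with a counting interval of 66.9 to 14841, and the single count came from line 9. No count was found in the 3 everolimus lines or in CX-5461 line 20 either. Cd36, a fatty acid transporter, fell from 42.4, 52.5 and 60.4 CPM to 0.592, 1.19 and 1.09 CPM (-5.71 ± 0.60, 52.5-fold lower, adjusted p = 0.000335). Ccnd2, the D-type cyclin that starts entry into the cell cycle, stood at 48.4, 30.7 and 46.3 CPM against 4.47, 0.259 and 0.319 CPM (-4.77 ± 0.71, adjusted p = 0.00145). Line 8 kept the most Ccnd2 of the 3, and without it the log2 fold change was -7.13. The everolimus lines held 24.1, 23.6 and 42.5 CPM of Ccnd2, and the difference between combination and everolimus lines passed as well (-4.29, adjusted p = 0.00989). CX-5461 line 20 held 1.13 CPM of Ccnd2 and 1.40 CPM of Cd36, both far below the naive lines. Dock10, Iqgap2, Gng12, Neurl1b, Utrn, Prg3, Raet1e and Cacna1i also fell, by 4.13 to 6.97 on the log2 scale. Gng12 was at -4.33 without combination line 31 and Cacna1i at -5.46 without combination line 8.

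Several genes that are switched on by ERK signalling and damp it again were higher in the combination lines. Of 29 tested, 7 rose and 2 fell, with a median log2 fold change of 0.43 (0.31 to 0.66 when 1 line was left out). Spry1, which blocks the path from receptor to RAS, stood at 0.324, 0.198 and 0 CPM against 6.38, 14.9 and 4.14 CPM (5.47 ± 0.72, 44.4-fold, adjusted p = 0.000798). Spry4, of the same family, stood at 0.927, 0.544 and 0.605 CPM against 8.69, 9.67 and 5.51 CPM (3.50 ± 0.38, adjusted p = 0.000354). Dusp4, a phosphatase that acts on ERK in the nucleus, stood at 1.90, 0.247 and 0.181 CPM against 11.3, 16.7 and 7.69 CPM (3.87 ± 0.73, adjusted p = 0.00468). The immediate early factors Egr2 (3.84 ± 0.67, adjusted p = 0.0031) and Egr1 (2.02 ± 0.45, adjusted p = 0.0103) rose too, as did Dusp1 (1.45 ± 0.38) and Etv5 (0.83 ± 0.21). The phosphatases Dusp5 and Dusp10 fell, and the Dusp10 call was lost without naive line 6. Dusp5 stood at 78.5, 72.3 and 56.1 CPM against 38.5, 22.6 and 27.1 CPM (-1.23 ± 0.24, adjusted p = 0.00524), so the nuclear ERK phosphatases moved in both directions.

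Naive line 6, the only naive line in its run of columns, stood apart from the other naive lines for this list. Its median was 0.40 above the naive mean, against -0.24 and -0.28 in lines 33 and 38 and 0.27, 0.81 and 0.17 in combination lines 8, 9 and 31. Line 6 thus had a higher median than 2 of the 3 combination lines. Without it, 11 members were higher, and the log2 fold changes of Dusp4 and Spry1 were 5.74 and 6.22. Without combination line 9 that of Spry1 was 4.796. The list's median over the naive mean was 0.31, 0.72 and 0.56 in everolimus lines 4, 12 and 26 and 0.70 in CX-5461 line 20. Each of these medians was above those of combination lines 8 and 31. Against the everolimus lines 2 members were higher and 3 lower, with a median of 0.01, so the rise was shared by the other treated lines.

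The recombinase genes of early B cell development rose. Rag1 and Rag2 together form the enzyme that cuts immunoglobulin gene segments for V(D)J joining, and they lie side by side on chromosome 2 (Rag1 at chr2:101638282-101649501 on the minus strand, Rag2 at chr2:101624718-101632529 on the plus strand, GRCm38). Rag1 stood at 15.1, 13.9 and 18.7 CPM against 204, 157 and 118 CPM (3.33 ± 0.28, 10.0-fold, adjusted p = 0.000149). Rag2 stood at 12.7, 14.5 and 19.5 CPM against 57.8, 46.5 and 39.9 CPM (1.63 ± 0.18, 3.09-fold, adjusted p = 0.00038). For both genes every combination line lay above every naive line by more than the spread within either group. Rag1 held 74.7, 115 and 55.8 CPM in the everolimus lines, and the combination lines were above them as a group (0.96, adjusted p = 0.0482), with line 31 (118 CPM) close to everolimus line 12. Of 17 tested genes of V(D)J joining and the pre-B receptor, these 2 rose and 2 fell, with a median of -0.02. The share called in this list was near the 21.2% over all genes. The 2 that fell were Vpreb3 (-0.44 ± 0.13, adjusted p = 0.0297, a call lost without any 1 of the naive lines or combination line 9) and Bst1 (-2.68 ± 0.58, adjusted p = 0.00876).

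Counts of immunoglobulin variable (V) segments were compared as shares within each line. Joined and unjoined segments cannot be told apart in such counts. The heavy chain V segment was the same throughout: Ighv2-2 led in all 10 lines, with 81.7% to 86.6% of heavy V counts. The kappa light chain differed between groups. In the naive lines Igkv1-117 led, with 52.4% (Wilson 95% interval 51.5 to 53.2), 76.3% and 79.8% of kappa V counts. In combination lines 8 and 9 Igkv4-79 led, with 30.5% and 32.4%, followed by Igkv5-43 with 23.6% and 31.9%, and in line 31 Igkv5-43 led with 39.8% and Igkv6-23 followed with 28.2%. In line 9 the second share lay inside the interval of the first (31.3 to 33.6). These intervals cover counting error only. The last 100 bases of the annotated transcripts (GENCODE M21, GRCm38, chromosome 6) are shown for the leading segments and for Igkv1-110, because the kappa finding is about which of these related genes was read. Capitals mark the codon of the conserved cysteine.
Igkv1-117: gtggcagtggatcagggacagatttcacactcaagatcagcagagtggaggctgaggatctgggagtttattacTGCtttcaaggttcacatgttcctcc
Igkv1-110: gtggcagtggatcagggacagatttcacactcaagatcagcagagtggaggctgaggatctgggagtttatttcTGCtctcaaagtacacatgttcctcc
Igkv5-43: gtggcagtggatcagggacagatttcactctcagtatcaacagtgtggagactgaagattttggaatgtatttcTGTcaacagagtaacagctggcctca
Igkv4-79: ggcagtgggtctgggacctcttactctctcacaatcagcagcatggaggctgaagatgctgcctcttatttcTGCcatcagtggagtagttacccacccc
Igkv6-23: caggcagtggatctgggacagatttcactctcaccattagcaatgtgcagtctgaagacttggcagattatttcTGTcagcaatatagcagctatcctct

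Reads were 50 bases long, and between 35.6% and 55.3% of the 50-base words of these 5 transcripts also occur in other V segments. How the counting divided such reads is not given in the sources used here, so levels of single V segments are uncertain. Igkv1-117 stood at 328, 358 and 389 CPM in naive lines and at 0.197, 0 and 0.137 CPM in combination lines (-11.63 ± 2.19, adjusted p = 0.00456; -11.04 without combination line 9). The summed counts were 20748 against 6. Igkv1-110, of the same V subfamily, fell alongside it, from 26.1, 28.5 and 28.1 CPM to 0.395, 0.465 and 0.319 CPM. Igkv5-43 rose from 1.16, 2.52 and 3.75 CPM to 83.8, 101 and 113 CPM (5.36 ± 0.57, 41.0-fold, adjusted p = 0.000335). Igkv4-79 stood at 108 and 102 CPM in lines 8 and 9, at 0.137 CPM in line 31 and at 51.3 CPM in everolimus line 26, against 0.271 to 1.37 CPM in the other lines of the fit. Igkv6-23 was high only in combination line 31 of the 10 lines, at 80.3 CPM. Among 66 kappa V segments tested, 11 were higher and 14 lower, and among 9 heavy V segments 1 was higher. Everolimus line 4 was led by Igkv1-117 (36.0%), as the naive lines were, and everolimus line 12 by Igkv4-57-1 (60.3%), while everolimus line 26 and CX-5461 line 20 were led by Igkv5-43 (39.9% and 63.1%).

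Several genes for MHC class II, which presents peptides to CD4 T cells, were higher in combination lines. In the list of MHC and antigen presentation, 10 of 25 tested genes rose and none fell, with a median of 0.22 (without combination line 8, 2 were lower). The median ranged from 0.17 to 0.35 when 1 line was left out, and was 0.13 with the run of columns in the deposited table as a term. H2-Eb1 stood at 10.6, 13.3 and 9.01 CPM against 108, 66.1 and 68.1 CPM (2.87 ± 0.31, 7.32-fold, adjusted p = 0.000388). Cd74, the invariant chain that guides class II through the cell, stood at 248, 279 and 172 CPM against 1306, 611 and 684 CPM (1.90 ± 0.28, adjusted p = 0.00142). Ciita, the factor that switches class II genes on, stood at 10.9, 12.7 and 10.7 CPM against 53.3, 33.9 and 32.0 CPM (1.79 ± 0.25, adjusted p = 0.00113). H2-Aa (1.83 ± 0.23), H2-DMa (1.77 ± 0.37), H2-Ab1 (1.51 ± 0.19), H2-DMb1 (1.40 ± 0.25) and H2-Ob (1.22 ± 0.17) also rose, with Tap2 (0.70 ± 0.13) and Psmb8 (0.60 ± 0.11), which help supply peptides to class I. Line 8 held the most H2-Eb1, Cd74 and Ciita of the 3 combination lines. The list's median over the naive mean was 0.28, 0.34 and 0.30 in combination lines 8, 9 and 31. It was 0.41, 0.69 and 0.20 in everolimus lines 4, 12 and 26 and 0.28 in CX-5461 line 20. Against the everolimus lines 5 members were higher and 3 lower, with a median of -0.01, so the rise was shared by the other treated lines.

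Of 32 genes of B cell identity and the B cell receptor, 3 were higher and 5 lower, with a median of 0.04. Bank1, an adaptor of the receptor, rose (1.21 ± 0.24, adjusted p = 0.00634), and Bach2, a transcription factor of B cells, rose by 0.45. The Bach2 call was lost without naive line 6 or 38 or combination line 31. Spib, a transcription factor of mature B cells, fell from 273, 277 and 245 CPM to 83.4, 60.3 and 129 CPM (-1.54 ± 0.23, adjusted p = 0.00146). Ms4a1, which encodes CD20, stood at 15.1, 13.0 and 11.9 CPM against 6.12, 3.62 and 1.46 CPM (-1.86 ± 0.49, adjusted p = 0.0215). The groups did not overlap for Ms4a1, but its call was lost when naive line 6, 33 or 38 or combination line 9 or 31 was left out. Cd24a, Lyn and Spn were the other 3 that fell.

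Cyclic AMP is made by adenylyl cyclases, broken down by phosphodiesterases, and acts through protein kinase A (PKA) and through EPAC, an exchange factor for the small GTPase Rap1. Of 33 tested genes of this pathway, 7 rose and 4 fell, with a median of 0.10 that ranged from 0.05 to 0.15 when 1 line was left out. The cyclase Adcy3 (chr12:4133103-4213525, GRCm38) stood at 9.04, 8.30 and 10.8 CPM against 32.9, 26.02 and 23.9 CPM (1.56 ± 0.18, 2.95-fold, adjusted p = 0.000478). The phosphodiesterase Pde8a (chr7:81213596-81334533) stood at 15.7, 16.5 and 16.2 CPM against 0.592, 1.14 and 0.273 CPM (-4.59 ± 0.39, 24.2-fold lower, adjusted p = 0.000149). Without combination line 9, which held the most of the 3, the Pde8a value was -5.25. A cyclase was thus higher and a phosphodiesterase lower, in all 3 combination lines. Both also differed from the everolimus lines, with Adcy3 1.28 higher (adjusted p = 0.00748) and Pde8a at -3.44 (adjusted p = 0.00446). CX-5461 line 20 held 23.4 CPM of Adcy3 and 0.723 CPM of Pde8a, close to the combination lines. The pattern was thus not particular to the combination lines.

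Rapgef3, which encodes EPAC1 (chr15:97744770-97767972), stood at 9.69, 9.49 and 5.80 CPM against 19.0, 22.9 and 15.7 CPM (1.20 ± 0.26, 2.29-fold, adjusted p = 0.00908). With CX-5461 lines 14 and 39 in the fit its adjusted p was 0.0626. Rapgef4, which encodes EPAC2, was at 0.569 CPM or less in every line, with 19 counts in combination lines against 2 in naive lines (ratio 9.81, counting interval 2.37 to 86.9, adjusted p = 0.0735 in the fit). The PKA catalytic subunit Prkacb (0.55 ± 0.11), the prostaglandin receptor Ptger4 (0.93 ± 0.20) and the CREB coactivators Crtc2 (0.81 ± 0.18) and Crtc1 (0.73 ± 0.12) rose. Creb1 itself fell (-0.57 ± 0.10, adjusted p = 0.00276). The EPAC targets Rap1a and Rap1b went opposite ways, at 0.46 and -0.75.

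**Figure D4:**
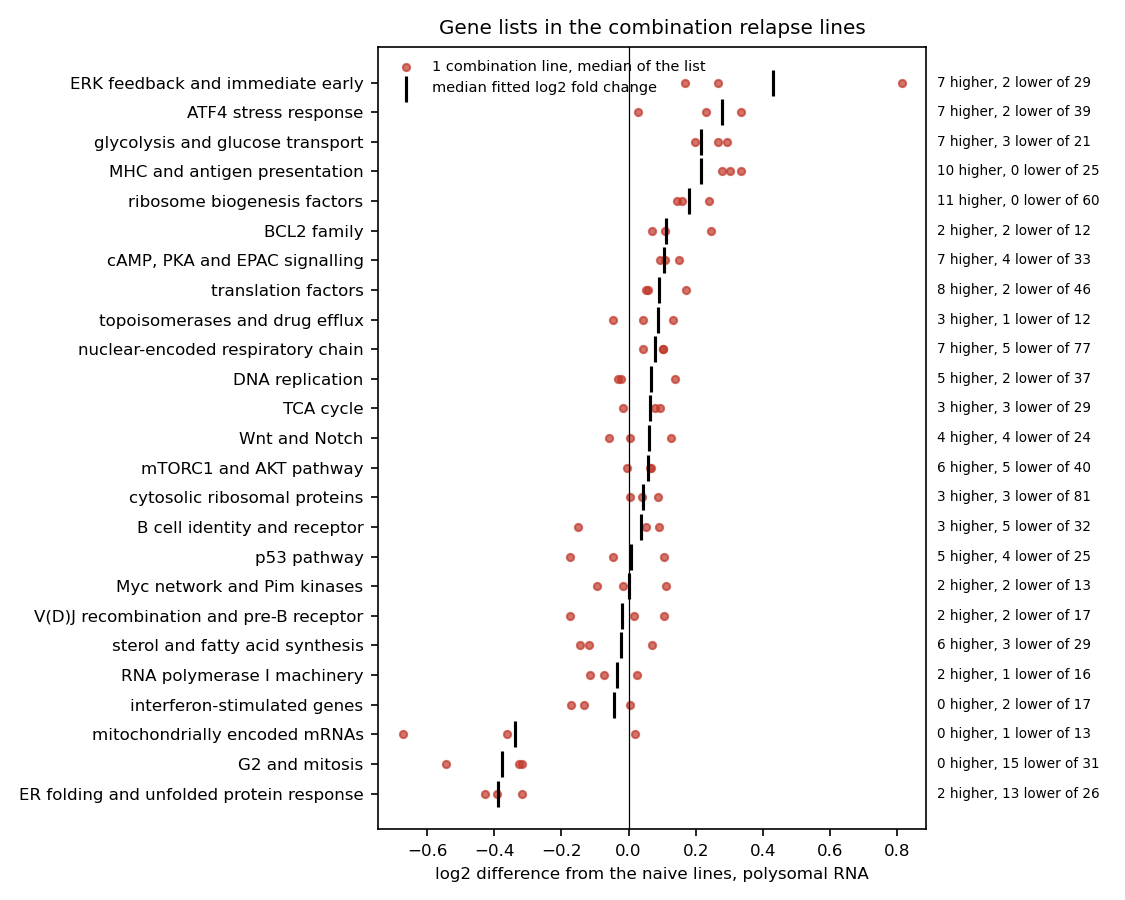
Median log2 difference from the naive mean of each gene list in polysomal RNA (x axis) for each combination line (points), with a bar for the median fitted log2 fold change of the list. ERK feedback genes (0.43) lay highest, and ER folding (-0.39) and G2 and mitosis genes (-0.38) lay lowest.

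Of 16 genes of the RNA polymerase I machinery, which CX-5461 acts on, 2 were higher and 1 lower, with a median of -0.03, a share near the 21.2% called over all genes. The largest subunit, Polr1a, stood at 304, 287 and 277 CPM against 199.98, 199.7 and 225 CPM (-0.47 ± 0.13, adjusted p = 0.0231). Polr1c (0.52 ± 0.11) and Taf1c (0.71 ± 0.18) rose, while Rrn3, Ubtf and Polr1b did not pass (-0.04 ± 0.10, -0.03 ± 0.11 and 0.29 ± 0.12). The Polr1a call was lost without naive line 6, 33 or 38 or combination line 8 or 9, and the Taf1c call without naive line 33 or 38 or combination line 31.

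Of 81 cytosolic ribosomal protein genes, 3 were higher and 3 lower, a share below the 21.2% called over all genes, with a median of 0.04. The number higher was 0 without naive line 33, naive line 38, combination line 9 or combination line 31, 5 without naive line 6 and 6 without combination line 8. The number lower was 2 without naive line 6 and 1 without any other of the 6 lines. Rplp1, Rplp0 and Rpl34 rose by 0.86, 0.63 and 0.83, and Rpl32 fell from 905, 936 and 919 CPM to 482, 528 and 553 CPM (-0.82 ± 0.12, adjusted p = 0.00134). Many ribosomal protein genes have near-identical pseudogenes, so these levels are uncertain. The Rplp1 and Rpl34 calls were lost without naive line 33 or 38 or combination line 9 or 31. Of 60 ribosome biogenesis factors 11 rose and none fell, with a median of 0.18. Bop1, needed to mature the large subunit, stood at 170.2, 141 and 153 CPM against 259, 282 and 347 CPM (0.94 ± 0.14, adjusted p = 0.00126). Rrp9, a U3 small nucleolar RNA protein, rose by 0.83 and lost its call without naive line 33 or 38 or combination line 9 or 31. The count of 11 was 4 without naive line 33 and 5 without naive line 38 or combination line 31.

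Of 46 translation factors, 8 were higher and 2 lower, a share near the 21.2% called over all genes, with a median of 0.09. Eif4h, a helper of the RNA helicase eIF4A, stood at 848, 766 and 828 CPM against 969.8, 1473 and 1599 CPM (0.73 ± 0.17, adjusted p = 0.0118), and Eif3b, a subunit of eIF3, rose by 0.65. Eef2, the elongation factor that moves the ribosome along, rose by 0.46. Eif4g2, which supports cap-independent initiation, fell by 0.56. The number of translation factors that rose was 3 without naive line 33, naive line 38 or combination line 31, and 4 without combination line 9.

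Of 40 genes of mTORC1 and AKT signalling, which everolimus acts on, 6 rose and 5 fell, with a median of 0.06, and 2 rose without naive line 33 or 38. Mtor stood at 565, 638 and 607 CPM against 281, 329.6 and 443 CPM (-0.78 ± 0.17, adjusted p = 0.00876). Fkbp1a, the protein everolimus binds, did not pass (0.00 ± 0.14, adjusted p = 0.993), nor did the mTORC1 target Eif4ebp1 (-0.08 ± 0.17, adjusted p = 0.773). Ddit4 and Sesn2, which restrain mTORC1 under stress, rose by 0.89 and 0.79, and Lamtor4, part of the lysosomal platform of mTORC1, rose 2.03-fold. Pik3cb (-2.46 ± 0.37), Pik3r1 (-0.77 ± 0.11) and Rps6kb1 (-0.37 ± 0.10) fell. Mtor was also low in the everolimus lines (416, 322 and 404 CPM), and the difference between combination and everolimus lines did not pass (-0.12 ± 0.17, adjusted p = 0.715).

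Among topoisomerases and drug efflux pumps, 3 of 12 rose and 1 fell. Abcb1b, a P-glycoprotein pump, stood at 17.9, 13.7 and 15.6 CPM against 39.5, 59.7 and 29.5 CPM (1.44 ± 0.25, 2.72-fold, adjusted p = 0.00277). Its paralogue Abcb1a rose from 1.16, 1.33 and 1.09 CPM to 2.96, 4.19 and 2.00 CPM, and the pump Abcc1 rose by 0.44. The Abcb1a call was lost without any 1 of the naive lines or combination line 9, and the Abcc1 call in 5 of the 6 cases, all but naive line 33. Top2a fell from 1236, 996 and 1123 CPM to 465, 726 and 804 CPM (-0.75 ± 0.21, adjusted p = 0.0282), a call lost without naive line 6 or 38 or combination line 8 or 9. Top2b did not pass (-0.08 ± 0.16, adjusted p = 0.755).

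Myc stood at 1245, 1035 and 989 CPM against 1966, 1880.4 and 1899.8 CPM (0.81 ± 0.15, 1.76-fold, adjusted p = 0.00464). The counts do not separate the transgene from the endogenous gene. The everolimus lines held 1409, 2035 and 1883 CPM, a range that covers the combination lines. Pim2 rose by 0.58 and Pim1 fell by 0.45, both kinases that cooperate with Myc. The Pim2 call was lost without combination line 9, and the Pim1 call without naive line 6 or combination line 9 or 31.

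Of 25 p53 pathway genes, 5 rose and 4 fell, with a median of 0.01. The 5 became 3 without naive line 6 or combination line 8 and 1 without naive line 33 or 38, and the 4 became 2 without naive line 6 and 1 without naive line 38 or combination line 9. Cdkn1a, the cell cycle inhibitor p21, fell from 19.0, 17.8 and 18.6 CPM to 6.45, 1.91 and 4.60 CPM (-2.10 ± 0.37, adjusted p = 0.00318), and Pmaip1 fell by 1.08. Zmat3 rose in lines 8 and 31 far more than in line 9: it stood at 23.2, 19.9 and 21.8 CPM against 126, 30.3 and 128 CPM (2.13 ± 0.51, adjusted p = 0.0143). Its call was lost without naive line 33 or 38, with an adjusted p up to 0.0774. Trp53 itself was higher by 0.48 ± 0.15 (adjusted p = 0.0414), a call lost in 5 of the 6 cases when 1 line was left out, all but combination line 9. Mdm2 was lower by 0.41 and Cdkn2a did not pass (0.01 ± 0.25, adjusted p = 0.986). The Mdm2 call was lost without naive line 33 or 38 or combination line 8 or 9, and the Pmaip1 call without naive line 6 or 38 or combination line 9. In the BCL2 family, the death effector Bax rose by 0.76 and Bmf by 0.75, Bid fell by 0.45, and the survival factors Bcl2 (-0.30 ± 0.19) and Mcl1 (0.15 ± 0.14) did not pass. Bcl2 passed without combination line 8 (adjusted p = 0.0297), the Bmf call was lost without naive line 38, and the Bid call in 5 of the 6 cases, all but naive line 6.

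Chaperones and sensors of the endoplasmic reticulum formed a list with many members lower. Of 26 tested, 13 fell and 2 rose, and the median was -0.39, with -0.32, -0.43 and -0.39 in lines 8, 9 and 31. Edem1, which sends misfolded proteins to degradation, stood at 106, 129 and 117 CPM against 47.6, 46.3 and 49.0 CPM (-1.30 ± 0.11, 2.46-fold lower, adjusted p = 0.000149). The disulfide isomerase Pdia4 stood at 300.5, 333 and 309 CPM against 147, 146 and 129.9 CPM (-1.16 ± 0.11, adjusted p = 0.000233). Xbp1, the transcription factor of the unfolded protein response, fell by 0.92 (adjusted p = 0.00243). Sdf2l1 and Pdia6 rose by 0.57 and 0.42, and the Pdia6 call was lost without naive line 33 or 38 or combination line 9 or 31. The number that fell was 7 without naive line 38 or combination line 9. The list's median was -0.30, -0.29 and -0.11 in the everolimus lines and -0.04 in CX-5461 line 20.

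In the ATF4 stress response, which supplies amino acids and tRNA synthetases, 7 of 39 genes rose and 2 fell, with a median of 0.28. The share called was near the 21.2% over all genes. Phgdh, the first enzyme of serine synthesis, stood at 539, 445 and 531 CPM against 1137, 1205 and 1230.4 CPM (1.24 ± 0.13, 2.36-fold, adjusted p = 0.000354). Trib3 rose by 1.38, a call lost without naive line 33 or combination line 9, and the glycine tRNA synthetase Gars fell by 0.68. The count of 7 was 4 without naive line 33, naive line 38 or combination line 9, and 11 without combination line 8. The 2 lower became 1 without any 1 of the 6 lines, and the median was 0.16 with the run of columns in the deposited table as a term.

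Of 21 genes of glycolysis and glucose transport, 7 rose and 3 fell, with a median of 0.22. Aldoc, an aldolase, stood at 1.53, 1.93 and 3.02 CPM against 12.5, 6.67 and 7.78 CPM (2.06 ± 0.33, adjusted p = 0.00211). The lactate carriers Slc16a3 and Slc16a1 rose by 0.92 and 0.84, and the glucose transporter Slc2a1 by 0.68. Hk1 fell by 0.68 and Slc2a3 by 0.54, and no member was lower without naive line 33, naive line 38, combination line 9 or combination line 31. The Slc2a3 call was lost without any 1 of the 6 lines. Nuclear genes of the respiratory chain were mixed, with 7 of 77 higher and 5 lower. The 7 became 4 without naive line 33 or combination line 31 and 3 without combination line 9, and the 5 became 1 without naive line 38 and 2 without combination line 31. Cycs, cytochrome c, fell from 204, 222 and 268 CPM to 108, 127 and 90.2 CPM (-1.09 ± 0.20, adjusted p = 0.00389). Of 13 mitochondrially encoded mRNAs, 1 (mt-Cytb) fell, and their median was -0.34. The lines differed, with medians of 0.02, -0.36 and -0.67 in lines 8, 9 and 31. Without line 8 the median was -0.53 and 4 were lower, and without line 31 it was -0.10 and 0 were lower. The mt-Cytb call was lost without naive line 6 or 38 or combination line 9 or 31. In sterol and fatty acid synthesis 6 of 29 rose and 3 fell, with 2 higher without naive line 33 and 3 higher without naive line 6 or combination line 9. The 3 lower became 0 without naive line 38 and 1 without any other of the 6 lines. In the TCA cycle 3 of 29 rose and 3 fell, a share near the 21.2% called over all genes. Of these, 1 was higher without naive line 33 or combination line 9, and 1 lower without naive line 38 or combination line 9.

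Many genes of G2 and mitosis were lower in combination lines. Of 31 tested, 15 fell and none rose, with a median of -0.38 and with -0.32, -0.54 and -0.33 in lines 8, 9 and 31. Mad2l1, of the spindle checkpoint, stood at 282, 280.3 and 345 CPM against 127, 134 and 118 CPM (-1.26 ± 0.17, 2.40-fold lower, adjusted p = 0.000853). Birc5 (-0.72 ± 0.14), Top2a and cyclin B1 (Ccnb1, -0.53 ± 0.14) were also among the 15, while the mitotic kinase Plk1 did not pass (0.03 ± 0.12, adjusted p = 0.867). The count of 15 was 8 without naive line 6, 6 without naive line 38, 5 without combination line 9 and 9 without combination line 31, and 1 member was higher without naive line 6. In DNA replication, 5 of 37 genes rose and 2 fell, a share near the 21.2% called over all genes. The 5 became 3 without naive line 33, naive line 38 or combination line 31. Pold1 (0.78 ± 0.17) and Mcm7 (0.58 ± 0.15) were higher, and Rrm2 (-0.49 ± 0.10) and Orc1 (-0.39 ± 0.12) lower. Of 17 interferon-stimulated genes, 2 fell (Parp14 and Ddx58) and none rose. The calls of Orc1, Parp14 and Ddx58 were lost without naive line 33, naive line 38, combination line 9 or combination line 31 (Orc1 and Parp14 also without naive line 6), and that of Mcm7 without naive line 33, naive line 38 or combination line 31.

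The same lines were compared in input RNA to see whether the differences were already present before fractionation. In input RNA 1676 of 16066 genes (10.4%) were called, 873 (5.43%) higher and 803 (5%) lower, and 4432 (27.6%) had an unadjusted p below 0.05. Rag1 (3.15), Hey1 (5.74), Lgr5 (2.87), H2-Eb1 (2.79), Adcy3 (1.61) and Pde8a (-3.92) passed there as well. Of the 137 named genes 131 had the same sign in both fractions, and Mlx, Rnu3b4, Supt16, Ing4, Eif1b and Ppip5k1 did not. Most named genes were chosen for their polysomal difference, and all of these exceptions but Mlx for a difference between fractions. The count of 131 is thus shaped by the choice of genes and is not a share over all genes. The sizes differed for some, as for Tgfb2 (3.43 in input RNA, 4.71 in polysomal RNA) and Zfp704 (3.57 and 5.33). Rpl32, Bax, Ddit4 and Pold1 were among the genes called in polysomal RNA that did not pass in input RNA (adjusted p = 0.148, 0.141, 0.144 and 0.236). One of the input libraries stood apart: naive line 38 had 30163 genes detected, against 19443 to 21180 in the other 5. The count of input calls was 877 without naive line 33, 1030 without naive line 38, 783 without combination line 8 and 547 without combination line 9. The 2 counts of calls come from different libraries with different spread, and their difference is not a measure of translation.

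**Figure D5:**
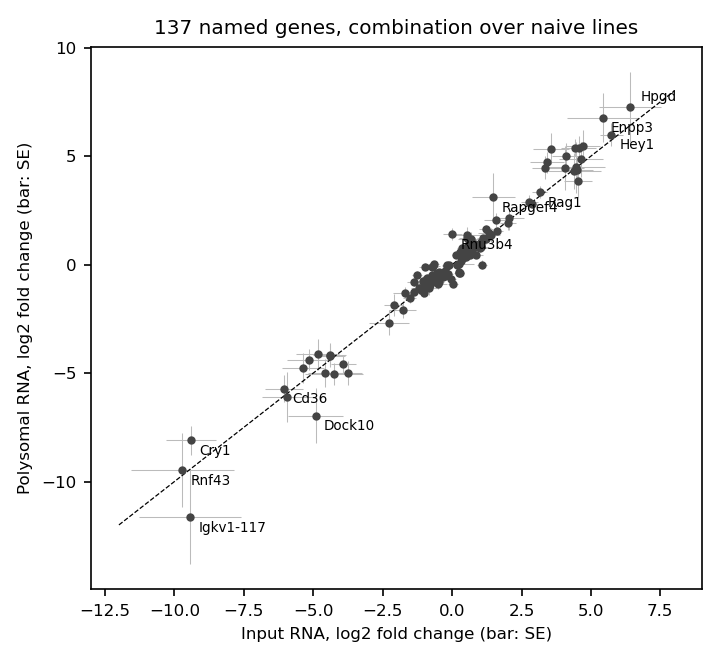
Log2 fold change in polysomal RNA (y axis) against that in input RNA (x axis), combination over naive, for the 137 named genes with standard error bars. The dashed line marks equal values, and no gene passed the test of the difference between fractions with the count filter in place.

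A term for the difference between fractions, fitted over polysomal and input libraries with each line as a block, was tested over 16822 genes. None passed after adjustment by edgeR or by DESeq2, and 923 genes (5.49%) had an unadjusted p below 0.05 by edgeR and 684 by DESeq2. Without naive line 6 the number at an unadjusted p below 0.05 was 2730 of 16754, with none passing after adjustment. Without a count filter, 62 genes passed (51 higher and 11 lower). The genes of smallest p are given as not passing. Rnu3b4, a U3 small nucleolar RNA, was 1.32 ± 0.31 higher in polysomal than in input RNA of combination relative to naive lines (unadjusted p = 0.00118, adjusted p = 0.892). It stood at 12.2, 19.1 and 20.9 against 48.1, 47.0 and 43.5 CPM in polysomal RNA, and at 25.7, 72.3 and 31.8 against 57.8, 36.2 and 35.6 CPM in input RNA. Ing4, a chromatin reader, went the other way, at -0.94 ± 0.22 (unadjusted p = 0.000955, adjusted p = 0.892). It fell in polysomal RNA, from 18.4, 24.9 and 18.02 to 10.4, 11.4 and 10.9 CPM, while its input values were 16.7, 12.5 and 14.1 against 11.9, 15.9 and 16.4 CPM. Vps13a, Atad2, Supt16 and Smc5 were the others higher, and Ndufb2, Eif1b, Mfsd11 and Ppip5k1 the others lower.

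Combination lines were also set against the 3 everolimus lines, which had relapsed under 1 of the 2 drugs. Of 15434 genes 993 (6.43%) were called, 428 (2.77%) higher and 565 (3.66%) lower in combination lines. Zfp704 (4.50, adjusted p = 0.00748) and Tgfb2 (4.34, adjusted p = 0.00446) were among those higher. Tgfb2 held 0.415, 0.625 and 0.116 CPM in the everolimus lines, close to its naive levels, and 5.87 to 10.2 CPM in the combination lines. Lgr5 was higher by 1.74 and Sh2b2 by 1.89. CX-5461 line 20, not part of this contrast, held 15.9 CPM of Zfp704, against 11.8, 9.21 and 4.78 CPM in combination lines 8, 9 and 31. It held 24.2 CPM of Sh2b2, against 18.9, 21.9 and 24.4 CPM, so these 2 genes were not particular to the combination lines. Slc16a3 and Slc2a1, both carriers, were higher by 1.19 and 1.06, and Phgdh by 0.74. Myc, Mtor, Rplp1, Igkv5-43 and Trp53, which differed between combination and naive lines, did not pass here (0.11, -0.12, 0.37, -0.00 and -0.00). The count of 993 moved with single lines, to 128 without everolimus line 26, 423 without everolimus line 4 or combination line 31, and 350 without combination line 9.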

How the data were processed

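The authors deposited tables of raw counts per gene, one for polysomal and one for input RNA of the relapse lines. Reads were single-end of 50 bases from ribosome-depleted RNA, per the labels' protocols. TopHat2, HTSeq and GRCm38 are named per the submitters' processing notes, and versions, annotation and strand setting are not given in the sources used here. Counts were tested with edgeR 4.0.16 (R 4.3.3, TMM scaling, filterByExpr by group, quasi-likelihood F test, Benjamini-Hochberg adjustment over all genes tested, threshold 0.05) on 10 lines. CPM are TMM-scaled, log2 CPM used a prior count of 2, and the standard error is the log2 fold change divided by the square root of F. Medians per line are over log2 CPM. The fraction term used both libraries of each line with the line as a block. Scripts were tested on simulated data. DESeq2 1.42.0 and other alternatives are given in the closing section.

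The members and gene lists were chosen with earlier results of these data known. Named genes passed the threshold, had a mean log2 CPM of at least 2 in the higher group and did not overlap between groups: the 15 largest rises and falls, up to 2 per direction of each of 25 lists, with 2 immunoglobulin segments per direction, clone and date names passed over, and 20 fixed genes. The 20 fixed genes were named whatever their result, and the genes of smallest p for the fraction term were added as not passing. Other list members, the kappa segments Igkv4-79 and Igkv6-23 and the genes of the closing section were chosen after their values were seen. Of the 35556 names in the table, 27 had turned into dates. Positions are from GENCODE M21. A few list members are not reported here by name.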

Additional observations from a re-analysis of the deposited data

How the results depend on the processing

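Of the 121 named genes called in polysomal RNA, none changed direction in any alternative, and 56 passed in every alternative. Polysomal calls numbered 3635 with DESeq2, 3267 with its size factors, 3853 without a filter, 3303 with 1 CPM in 3 libraries required, 3141 with the 2 groups alone, 1480 with all 12 lines and 1669 to 3203 without 1 line. Input calls were 1676, 2520 without a filter, and 547 to 1763 without 1 line. Calls against everolimus lines were 993, 1753 with DESeq2, 2024 without a filter, 362 with 2 groups alone, 104 with all 12 lines and 128 to 1348 without 1 line. The fraction term gave 62 calls without a filter (51 higher, 11 lower) and 0 in all other alternatives. Chosen after seeing the data, the run of columns in each table as a term gave 3485 polysomal, 3871 input and 1219 calls against everolimus, and all 121 called named genes kept their direction within both runs. No paired analysis was possible because the naive lines (6, 33, 38) and combination lines (8, 9, 31) share no number. For the fraction term the 2 libraries of a line are paired by it, and with no replicate block 0 genes passed. Without a filter, Rapgef4 (adjusted p = 0.0198 by edgeR) and Smc5 passed in polysomal RNA. With all 12 lines, 52 named genes were no longer past the threshold. Depth limits genes with few counts, such as Rapgef4, to their counting intervals.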

Other observations

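Some genes stood at least 4-fold apart in 1 of the 6 lines from each of the other 5 (on the log2 CPM scale with prior count 2). These values have no replicate. Combination line 8 had 2 such genes higher and 2 lower, line 9 had 5 and 3, line 31 had 9 and 6, naive line 6 had 5 and 0, and naive lines 33 and 38 had 0. In line 9, Tmprss13, a membrane serine protease, held 229.8 CPM against at most 6.29 in the other lines, and Lef1, a transcription factor of the Wnt pathway and of early lymphocytes, held 21.9 against at most 1.46 CPM. Poglut1, a glucosyltransferase that modifies Notch, held 0.259 CPM in line 9 against at least 12.1 CPM elsewhere. In line 31, Bcl2l2, a survival factor of the BCL2 family, held 5.14 CPM against at most 0.672.

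The noncoding RNA Rn7sk, which holds the elongation factor P-TEFb inactive, took 0.149%, 0.229% and 0.195% of polysomal counts in naive lines 6, 33 and 38 and 0.515%, 0.504% and 0.411% in combination lines 8, 9 and 31 (log2 fold change 1.40 ± 0.20, adjusted p = 0.00126 by edgeR). The RNase P RNA Rpph1 rose by 0.64 ± 0.19 (adjusted p = 0.0378 by edgeR). Counts assigned to Lars2, a mitochondrial tRNA synthetase gene, took 1.95%, 0.396% and 2.60% against 3.50%, 3.62% and 0.0594% and did not pass (adjusted p = 0.761 by edgeR). Yam1 followed the same order of lines, at 1.21%, 0.158% and 1.54% against 1.87%, 2.92% and 0.0193% (adjusted p = 0.717 by edgeR). Where the reads of these 2 genes come from was not tested, so the Lars2 share may not be the level of its mRNA.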
